A study of Homo sapiens with 5 samples.

Results

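The nuclear pore complex is the gate of the nuclear envelope through which messenger RNA leaves the nucleus and proteins enter it. It is built from many copies of a limited set of proteins, the nucleoporins, arranged as an outer ring on each face (the Y complex), an inner ring, a central channel of flexible phenylalanine-glycine repeats, membrane anchors, filaments on the cytoplasmic side and a basket on the nuclear side. Most nucleoporins are needed in every cell, and some also touch chromatin and take part in mitosis. The genes described here were chosen by name from a table of poly(A) sites, namely every row whose gene symbol began with NUP and a digit, and the rows of POM121, NDC1, SEH1L, SEC13, AAAS, RAE1, TPR and RANBP2. The rule found 29 genes with 66 poly(A) sites, among 12693 genes and 29996 sites in all. Of these, 28 genes encode proteins of the pore, and NUP50-DT, a noncoding RNA that starts beside NUP50 and runs away from it, was included by its name alone. NUP42 had no row under that symbol, and 2 sites under its older symbol NUPL2 are given with the linked genes at the end.

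The libraries came from H9, an established line of human embryonic stem cells, grown without treatment in a feeder-free medium. The tested libraries were 3 labelled CFIm25 KO, and 2 labelled control stood against them, all after CRISPR-Cas9 transfection. Per the study, each CFIm25 KO library came from 1 clone made with its own guide RNA, each clone kept some CFIm25 carrying a short in-frame deletion near its start, and the controls had received an empty vector, so "KO" is used here as a label. NUDT21 encodes CFIm25, a subunit of cleavage factor I, which recognises UGUA in pre-mRNA and takes part in choosing the poly(A) site. The question put to these genes was whether their level, or the choice among their poly(A) sites, differed between the edited and the control cells.

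Each library held 5203908 to 7783102 reads in the table, of which 0.187 to 0.199% fell on nuclear pore genes, and the median nuclear pore site had 40.5 to 67 reads per library. The method sequences only the 3′ end of a transcript, so read counts scaled to library size (CPM, after TMM) do not grow with transcript length and can be compared between genes. NUDT21 had 131, 129 and 133 CPM in CFIm25 KO libraries, against 223 and 222 CPM in control libraries. It was lower by edgeR (log2 fold change −0.77 ± 0.11 (SE), adjusted p = 0.0324), and that call was lost without control 1 (adjusted p = 0.856), control 2 (0.995) or CFIm25 KO 1 (0.151). Its 3′ end lies outside the edited part, so this level does not check the labels. Of 10 embryonic stem cell markers 10 were found, with a summed level of 7440 to 7766 CPM in CFIm25 KO libraries and 6079 to 7820 CPM in control libraries. The low control sum came mostly through LIN28A, at 748 CPM in control 2 against 2504 CPM in control 1 and 2455, 2759 and 1986 CPM in CFIm25 KO libraries. Of 7 fibroblast markers 4 (COL3A1, DCN, LUM and POSTN) were absent from the table. The other 3, COL1A1, COL1A2 and THY1, summed to 94.1 to 224 CPM in CFIm25 KO libraries and 158 to 168 CPM in control libraries, mostly through THY1. The 4 ectoderm markers that were found summed to 147 to 440 CPM in CFIm25 KO libraries and 127 to 155 CPM in control libraries. The high value was that of CFIm25 KO 2, mostly through SIX3 and OTX2. NES had 91.0, 91.8 and 98.5 CPM in CFIm25 KO libraries, against 77.1 and 67.9 CPM in control libraries. In CFIm25 KO 1, ZIC2 (78.8 CPM) and OTX2 (47.6 CPM) were also above both controls, whereas in CFIm25 KO 3 OTX2 was below both (11.5 CPM) and ZIC2 lay between them (36.0 CPM). The part of these markers in the values below was not tested. Clones are the replicates, so p-values measure the spread between clones, whatever its source.

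All genes found by the rule except NUP210 passed the count filter. The 28 genes tested, called nuclear pore genes below, therefore include the noncoding NUP50-DT. None of them differed between CFIm25 KO and control cells by the test. Across the table edgeR's quasi-likelihood test called 7 of 11841 genes at an adjusted p under 0.05 (0.0591%), and 844 genes (7.13%) had an unadjusted p under 0.05. Among the nuclear pore genes 2 of 28 did, so a share like that of the table, and DESeq2 called 0 as well, with 0 at an unadjusted p under 0.05. The median log2 fold change was −0.02 over the 28 genes and 0.01 over all genes, with 11 genes above 0 and 17 below, beside 48.4% of all genes below 0. The CFIm25 KO and control libraries did not overlap for 6 of 28 genes (2 higher, 4 lower), a share of 21.4% beside 24.5% of all genes (12.0% higher, 12.4% lower). The 95% confidence interval of the fold change lay within 1.5-fold in either direction for 19 of the 28 genes and within 2-fold for 26. These intervals are not adjusted for the number of genes tested. They therefore do not give the size of change that the test could call.

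**Figure D1:**
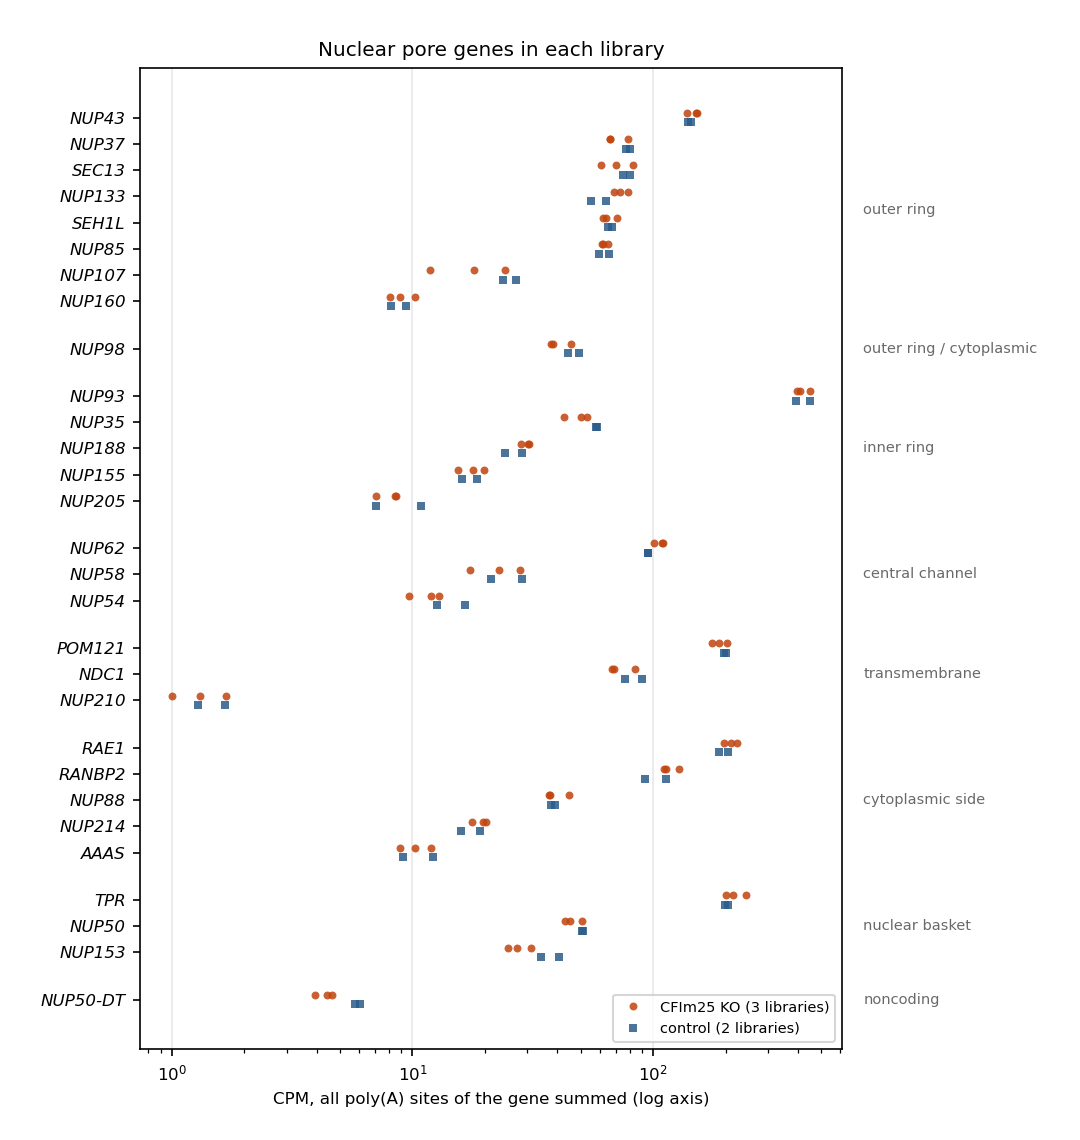
Level of each of the 29 genes in each library, as CPM summed over the gene's poly(A) sites (log axis), with 3 CFIm25 KO libraries as circles above 2 control libraries as squares, grouped by place in the pore. Levels ran from 418 CPM for NUP93 to 1.33 CPM for NUP210 in CFIm25 KO cells, where NUP210 was counted at an intronic site only. The groups lay close together within almost every gene.

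The levels of the genes differed far more than the groups did. NUP93, the inner-ring protein that ties the scaffold together, had the highest level, with 418 ± 28.4 CPM in CFIm25 KO cells (SD, n = 3) and 421 ± 39.0 CPM in control cells (SD, n = 2). It was followed by TPR, the coiled-coil protein that forms the basket, with 219 ± 21.2 CPM in CFIm25 KO cells and 202 ± 4.15 CPM in control cells, and RAE1, an mRNA export factor that docks on NUP98, with 210 ± 12.9 and 196 ± 12.3 CPM in the same order of groups. The levels of TPR and RAE1 did not differ from each other beyond their spread. At the low end of the genes tested stood NUP160, a large arm of the Y complex, with 9.04 ± 1.12 CPM in CFIm25 KO cells and 8.75 ± 0.90 CPM in control cells. NUP205, a large inner-ring scaffold protein, had 8.0 ± 0.84 CPM in CFIm25 KO cells and 8.94 ± 2.68 CPM in control cells, which overlapped with NUP160. NUP50-DT had 4.33 ± 0.36 CPM in CFIm25 KO cells and 5.90 ± 0.20 CPM in control cells. NUP210, a membrane glycoprotein of the pore known in mouse to be switched on as some cells differentiate, was assigned only an intronic site. This site had 12, 8 and 5 reads in CFIm25 KO libraries and 8 and 6 reads in control libraries, and did not pass the count filter. The nearest listed site on the same strand lay 97664 bp away, the same distance as the annotated 3′ end of NUP210. That site was not counted for NUP210, and whether it belongs to this gene was not tested, so the level of NUP210 may be too low. The outer-ring genes alone ran from NUP160 to NUP43, a small propeller protein of the Y complex at 147 ± 7.85 CPM in CFIm25 KO cells and 142 ± 2.38 CPM in control cells.

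In the outer ring 3 of 8 genes had a log2 fold change above 0 and 5 below, with a median of −0.01. NUP133, which links neighbouring Y complexes, had 72.9, 78.5 and 69.0 CPM in CFIm25 KO libraries, against 63.6 and 55.3 CPM in control libraries. Every CFIm25 KO library was above both controls, yet the log2 fold change of 0.31 ± 0.14 (SE) had an adjusted p of 0.696 by edgeR. NUP107, the stem protein that binds NUP133, had 24.2, 11.8 and 18.1 CPM in CFIm25 KO libraries, against 26.9 and 23.7 CPM in control libraries, where CFIm25 KO 2 was low and CFIm25 KO 1 lay between the controls. Its log2 fold change was −0.48 ± 0.26 (SE; adjusted p = 0.779, edgeR), so these partners pointed in opposite directions and neither passed the test. The other members were NUP37, NUP43, NUP85, SEH1L and SEC13, of which SEH1L and SEC13 also serve in the nutrient-sensing GATOR2 complex and SEC13 in the coat of vesicles leaving the endoplasmic reticulum. They had log2 fold changes between −0.16 for NUP37 and 0.06 for NUP43, and NUP160 had 0.05.

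In the inner ring 2 of 5 genes were above 0 and 3 below, with a median of −0.01. NUP35, which binds the membrane around the pore, had 50.3, 42.8 and 53.1 CPM in CFIm25 KO libraries, against 58.6 and 57.9 CPM in control libraries. All CFIm25 KO libraries were below both controls, but the log2 fold change of −0.26 ± 0.15 (SE) had an adjusted p of 0.794 by edgeR. NUP93, NUP155, NUP188 and NUP205, the other scaffold proteins of this ring, had log2 fold changes of −0.01, 0.04, 0.17 and −0.17, each with an interval that included 0.

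The central channel is formed by NUP62, NUP54 and NUP58, which join into trimers. NUP62 had 110, 108 and 101 CPM in CFIm25 KO libraries, against 95.3 and 95.4 CPM in control libraries. The groups did not overlap, and the log2 fold change was 0.16 ± 0.12 (SE; adjusted p = 0.854, edgeR). NUP54 had 11.9, 9.67 and 12.9 CPM in CFIm25 KO libraries, against 16.5 and 12.6 CPM in control libraries, which overlapped, with a log2 fold change of −0.34 ± 0.23 (SE; adjusted p = 0.831, edgeR). NUP58 had 28.1, 17.4 and 22.9 CPM in CFIm25 KO libraries, against 28.6 and 21.1 CPM in control libraries. Its level overlapped between groups as well (log2 fold change −0.12 ± 0.23 (SE)).

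Of the membrane anchors, POM121 had a log2 fold change of −0.08 and NDC1, which binds scaffold proteins at the membrane, of −0.17, both with adjusted p values above 0.8 (edgeR). POM121 has a near-identical copy, POM121C, which had 16, 11 and 7 reads in CFIm25 KO libraries and 5 and 9 reads in control libraries; with 1 alignment kept per read, reads shared by the copies could have been given to either. On the cytoplasmic side 4 of 5 genes were above 0, with a median of 0.09. RANBP2, the large filament protein that binds RAN and attaches SUMO, had 111, 113 and 128 CPM in CFIm25 KO libraries, against 113 and 92.4 CPM in control libraries, which overlapped (log2 fold change 0.18 ± 0.14 (SE)). Its near-identical RGPD copies had 12 sites in 4 genes with 304, 204 and 161 reads in CFIm25 KO libraries and 195 and 199 reads in control libraries, so its counts are uncertain in the same way. NUP214 and NUP88, partners in export on this side, RAE1, and AAAS, the gene mutated in triple A syndrome, had log2 fold changes of 0.14, 0.05, 0.09 and −0.04.

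In the nuclear basket the lowest unadjusted p among the 28 genes was found. NUP153, the anchor of the basket that also takes part in import, had 31.2, 27.2 and 24.9 CPM in CFIm25 KO libraries, against 40.6 and 34.2 CPM in control libraries. All CFIm25 KO libraries were below both controls, and the log2 fold change was −0.43 ± 0.17 (SE), with an adjusted p of 0.640 over 11841 genes by edgeR. NUP50, a mobile basket protein that helps importins release their cargo, had 45.2, 50.7 and 43.0 CPM in CFIm25 KO libraries, against 51.3 and 50.8 CPM in control libraries, a narrow gap (log2 fold change −0.14 ± 0.15 (SE)). TPR had a log2 fold change of 0.12 ± 0.12 (SE). The basket genes therefore had a median of −0.14 with 1 of 3 above 0. The noncoding NUP50-DT had 28, 27 and 23 reads in CFIm25 KO libraries and 29 and 27 reads in control libraries, for a log2 fold change of −0.45 ± 0.31 (SE; adjusted p = 0.831, edgeR).

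**Figure D2:**
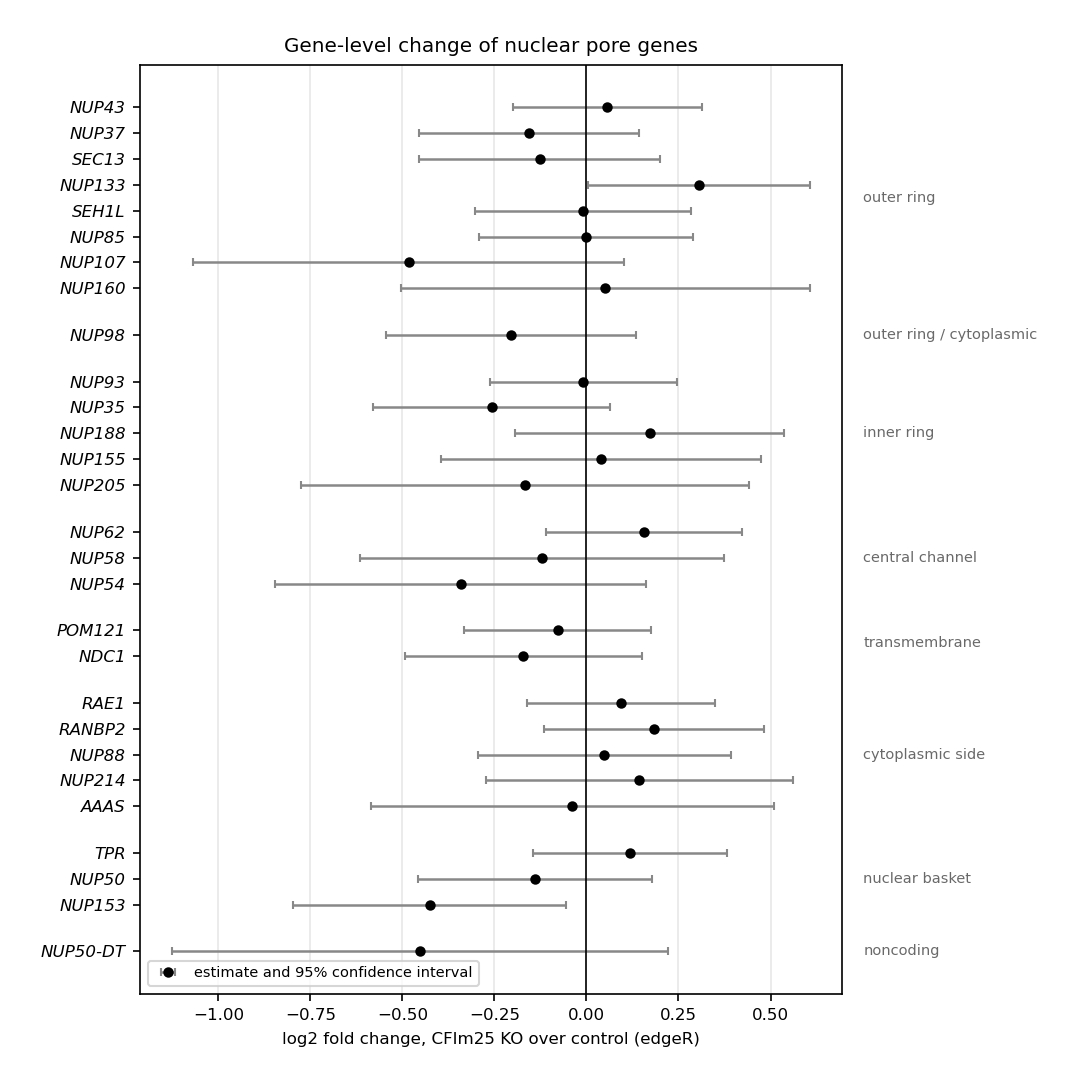
Gene-level log2 fold change of CFIm25 KO over control for the 28 genes tested, with points as edgeR estimates and bars as 95% confidence intervals, grouped by place in the pore. The interval of NUP153 lay below 0 and that of NUP133 just above it, while the other 26 intervals included 0, and none of the 28 genes passed the adjusted threshold.

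Most of these genes end at few places. Of the 29 genes, 7 had 1 site, 16 had 2 and 6 had 3 or more, up to 7 for TPR and 7 for RANBP2. The table placed 52 of the 66 sites in a 3′ UTR, 8 in another exon and 6 in an intron. All positions are GRCh38, the build that placed 100% of the 66 sites in their gene or at most 5000 bp away (25.8% in GRCh37). The end of an annotated transcript could be matched to 18 sites of 15 genes. In the last 30 bases of those ends, 11 held AATAAA, the canonical poly(A) signal, 2 held ATTAAA, its commonest variant, and 5 held neither. Bases further upstream were not searched. TGTA, the DNA form of the CFIm25 motif, was in the last 100 bases of 12 of the 18 (66.7%), beside 41.5% of 89166 annotated transcripts of coding genes, counted on the transcript strand only and including transcripts whose annotated end is not a poly(A) site. The last 30 bases of 6 of these ends follow, 5′ to 3′, with the signal in capitals, from GENCODE v44 transcripts lifted to GRCh37. They were chosen as the ends of NUP93, the gene with the highest level, of NUP62 and NUP153, whose groups did not overlap, of NUP188 as an ATTAAA end, and of both NUP58 3′ UTR sites, whose shares are given further on.
NUP93-220 (chromosome 16, position 56844764): acgccAATAAAtttctttgatttgtatttc
NUP62-202 (chromosome 19, position 49906827): tttctaAATAAAtgtattgtgaaaccaaaa
NUP153-202 (chromosome 6, position 17615036): aatgccatcAATAAAaaattatgacatact
NUP188-201 (chromosome 9, position 129007092): atacagatATTAAAatcttgtttatagaca
NUP58-204 (chromosome 13, position 25336340): acaatgaacAATAAAtttAATAAAataaaa
NUP58-202 (chromosome 13, position 25342409): aaatttattgtgtcagttgctttgattctt
The proximal NUP58 end thus carried AATAAA in both capital runs, whereas the distal end, which took most of the gene's reads, showed no such hexamer in this stretch.

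Tested one by one, no nuclear pore site passed the threshold either. edgeR called 25 of 24722 sites across the table (0.101%), and 2006 (8.11%) had an unadjusted p under 0.05. Of 60 nuclear pore sites tested 0 were called, 5 had an unadjusted p under 0.05, and DESeq2 called 0, with 5 at an unadjusted p under 0.05. The groups did not overlap for 17 of the 60, of which 9 were higher and 8 lower in CFIm25 KO (28.3%, beside 25.9% of all sites, 12.6% higher and 13.3% lower). In the test of each site's share of its gene, edgeR called 6 of 13949 sites (0.043%), and 485 (3.48%) had an unadjusted p under 0.05. Of 53 nuclear pore sites in 21 genes 0 were called, 2 had an unadjusted p under 0.05, and limma on log ratios called 0, with 4 at an unadjusted p under 0.05. The groups did not overlap in share for 16 of the 53, of which 9 were higher and 7 lower (30.2%, beside 28.9% of all, 14.6% higher and 14.4% lower). The counts for nuclear pore sites were thus close to those of the table, and the sites with the lowest p values are described one at a time.

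NUP98 had the site with the lowest p value in the single-site test. Its gene makes NUP98, a repeat protein of the channel and cytoplasmic face, in 2 ways: a short mRNA encodes NUP98 alone, and long mRNAs encode a precursor that cleaves itself into NUP98 and NUP96, a subunit of the Y complex. The table held an end of the short mRNA (NUP98-204, 920 amino acids) at chromosome 11, position 3711833, minus strand, and 3 ends of long mRNAs at positions 3675875, 3675071 and 3675019, the last assigned to NUP98-203 with 1817 amino acids. The middle one was assigned to NUP98-221, which is annotated as a target of nonsense-mediated decay. The short end had 91, 130 and 68 reads in CFIm25 KO libraries, against 25 and 40 reads in control libraries. In CPM these were 12.8, 21.3 and 13.7 in CFIm25 KO libraries and 5.21 and 8.54 in control libraries, so every CFIm25 KO library lay above both controls. The log2 fold change was 1.21 ± 0.31 (SE), with an adjusted p of 0.261 over 24722 sites by edgeR. As a share of the gene's reads, the short end held 28.1, 56.8 and 35.6% in CFIm25 KO libraries and 10.6 and 19.3% in control libraries. The groups were again apart, with CFIm25 KO 2 highest (share log2 difference 1.42 ± 0.57 (SE), adjusted p = 1.00, edgeR).

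The 3 long ends of NUP98 were less alike. Summed, they had 32.7, 16.2 and 24.7 CPM in CFIm25 KO libraries, against 44 and 35.7 CPM in control libraries, so that all CFIm25 KO libraries were below both controls. The most distal end had 27.1, 10.8 and 12.3 CPM in CFIm25 KO libraries, against 32.9 and 24.1 CPM in control libraries, and CFIm25 KO 1 lay between the controls (log2 fold change −0.75 ± 0.43 (SE), adjusted p = 0.739, edgeR). The end at 3675071, 52 bp away from it, had 0, 6 and 17 reads in CFIm25 KO libraries and 16 and 11 reads in control libraries, where 0 of 324 reads allows a share of up to 0.926% in CFIm25 KO 1. Merged, these close ends had 27.1, 11.8 and 15.7 CPM in CFIm25 KO libraries, against 36.3 and 26.5 CPM in control libraries, which overlapped. With sites of a gene within 100 bp merged, an alternative added after seeing the data, the share log2 difference of the short end was 1.42 (adjusted p = 0.412, edgeR). The end at 3675875 had 5.62, 4.43 and 9.05 CPM in CFIm25 KO libraries and 7.71 and 9.18 CPM in control libraries, which overlapped. The gene as a whole had 45.5, 37.5 and 38.4 CPM in CFIm25 KO libraries, against 49.2 and 44.2 CPM in control libraries, with a log2 fold change of −0.20 ± 0.16 (SE; adjusted p = 0.851, edgeR). Leaving out CFIm25 KO 2, the clone with the largest share, gave a share log2 difference of 1.09, and leaving out control 1 gave 1.02, both with an adjusted p of 1.00 (edgeR).

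NUP58 had the lowest p value of any nuclear pore site in the share test. An end inside an intron at chromosome 13, position 25324311, plus strand, had 14, 14 and 13 reads in CFIm25 KO libraries, against 1 and 2 reads in control libraries. The reads were few but alike within each group. A site with so few reads enters the table only where its reads summed over the libraries reach the minimum, here mainly through CFIm25 KO libraries, so its direction is not independent of its being listed. As a share of the gene the intronic end held 7.0, 13.2 and 11.4% in CFIm25 KO libraries and 0.730 and 2.02% in control libraries. The share log2 difference was 2.88 ± 0.74 (SE), with an adjusted p of 0.475 over 13949 sites by edgeR. It was 2.25 without control 1 and 3.64 without control 2 (adjusted p = 1.00 each, edgeR), and without CFIm25 KO 2 the site no longer passed the count filter.

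Both 3′ UTR ends of NUP58 are printed above as NUP58-204 and NUP58-202. The proximal end held 28.0, 38.7 and 31.6% of the gene's reads in CFIm25 KO libraries, against 21.9 and 19.2% in control libraries. The distal end held 65.0, 48.1 and 57.0% in CFIm25 KO libraries, against 77.4 and 78.8% in control libraries. For both ends the groups did not overlap, and neither difference passed the test (share log2 differences 0.62 ± 0.35 and −0.42 ± 0.26 (SE), adjusted p = 1.00 each, edgeR). In level, the proximal end had 7.87, 6.72 and 7.24 CPM in CFIm25 KO libraries against 6.25 and 4.06 CPM in control libraries, while the distal end overlapped between groups.

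**Figure D3:**
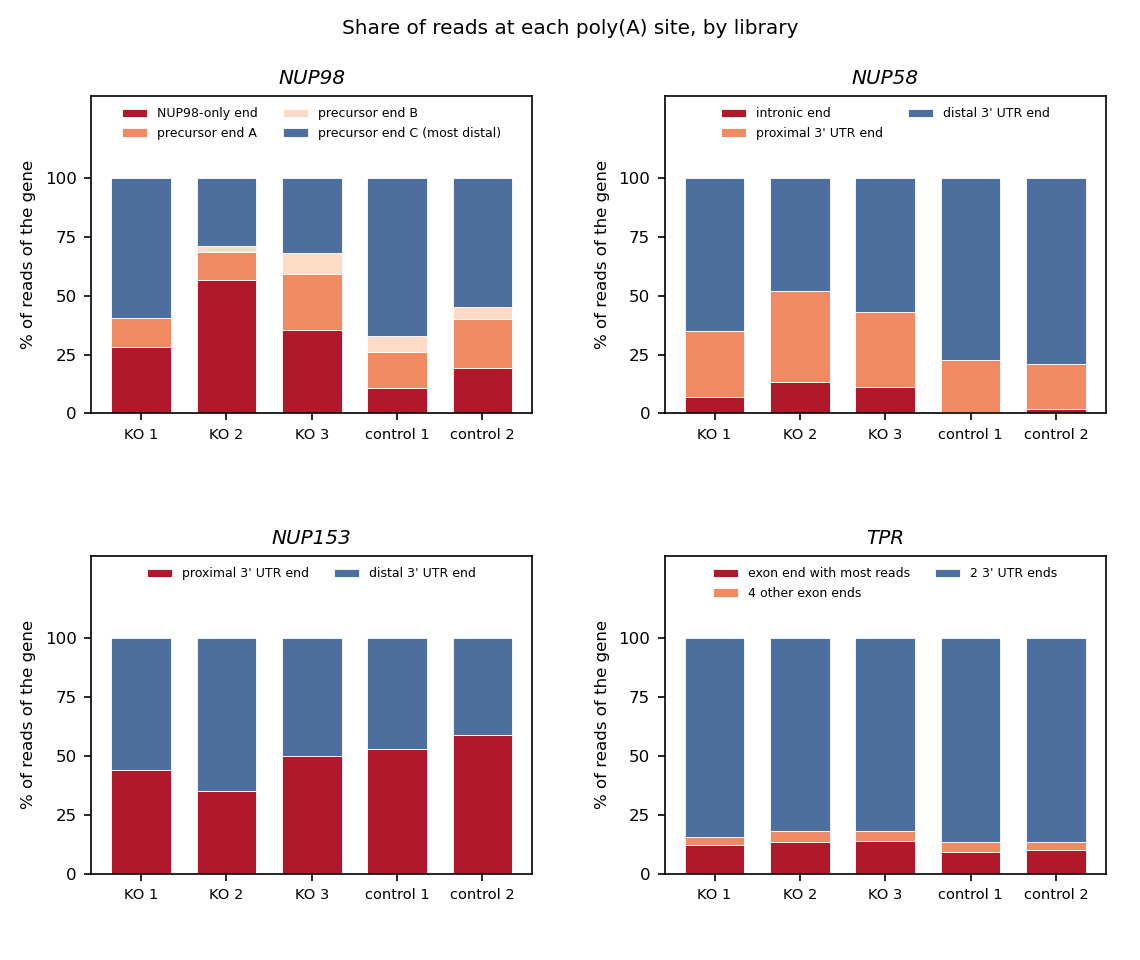
Share of each gene's reads at its poly(A) sites in 3 CFIm25 KO and 2 control libraries, for NUP98, NUP58, NUP153 and TPR, with stacked bars from 0 to 100%. The NUP98-only end held 28.1 to 56.8% in CFIm25 KO and 10.6 to 19.3% in control libraries, and the intronic NUP58 end 7.0 to 13.2% and 0.730 to 2.02%; precursor ends A, B and C of NUP98 are the long-mRNA ends at 3675875, 3675071 and 3675019.

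Of the 2 sites of NUP153, the proximal had the lower p value. This site, at chromosome 6, position 17615375, minus strand, had 13.8, 9.51 and 12.5 CPM in CFIm25 KO libraries, against 21.5 and 20.1 CPM in control libraries. The groups were well apart, with a log2 fold change of −0.80 ± 0.22 (SE) and an adjusted p of 0.324 by edgeR. The distal site, 339 bp further at 17615036, had 17.4, 17.7 and 12.5 CPM in CFIm25 KO libraries, against 19.2 and 14.1 CPM in control libraries, which overlapped (log2 fold change −0.06 ± 0.24 (SE)). The proximal site held 44.1, 34.9 and 50.0% of the gene's reads in CFIm25 KO libraries and 52.8 and 58.8% in control libraries, a direction opposite to that of NUP98 and NUP58 (share log2 difference −0.37 ± 0.24 (SE), adjusted p = 1.00, edgeR).

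TPR had 5 ends labelled only as lying in an exon, all upstream of its 2 ends in the 3′ UTR. The exon end with the most reads, at chromosome 1, position 186341313, minus strand, had 26.0, 32.5 and 27.9 CPM in CFIm25 KO libraries, against 18.6 and 20.3 CPM in control libraries. Every CFIm25 KO library was above both controls, and the log2 fold change was 0.57 ± 0.19 (SE), with an adjusted p of 0.443 by edgeR. It held 12.2, 13.4 and 13.9% of the reads of TPR in CFIm25 KO libraries and 9.33 and 9.91% in control libraries (share log2 difference 0.45 ± 0.20 (SE), adjusted p = 1.00). The main 3′ UTR end of TPR, at 186313828, had 175, 194 and 161 CPM in CFIm25 KO libraries and 169 and 171 CPM in control libraries, so its level overlapped between groups.

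The remaining sites with low p values belonged to NUP133, NUP107 and RANBP2. The main end of NUP133, at chromosome 1, position 229441297, had 63.1, 69.2 and 59.1 CPM in CFIm25 KO libraries, against 55 and 45 CPM in control libraries (log2 fold change 0.35 ± 0.16 (SE), adjusted p = 0.610, edgeR), and its share overlapped between groups. The proximal end of NUP107, at chromosome 12, position 68742522, was lower in all CFIm25 KO libraries than in both controls (log2 fold change −0.59, adjusted p = 0.628, edgeR). A minor end of RANBP2, at chromosome 2, position 108785470, held 2.03, 2.76 and 1.26% of the gene's reads in CFIm25 KO libraries and 3.31 and 3.93% in control libraries. The groups did not overlap, and the share log2 difference of −0.84 had an adjusted p of 1.00 (edgeR).

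NUP37 and NUP88 each had a site listed at 0 in some libraries beside a close neighbour, as the NUP98 end at 3675071 had in CFIm25 KO 1. NUP37, a Y complex protein, had an end at chromosome 12, position 102074241, with 0, 0 and 39 reads in CFIm25 KO libraries and 41 and 40 reads in control libraries, 47 bp from its main end. There, 0 of 561 and 0 of 404 reads allow shares of up to 0.535% in CFIm25 KO 1 and 0.743% in CFIm25 KO 2, against 11.9% in CFIm25 KO 3 and 11.1 and 10.7% in control libraries. NUP88 had an end at chromosome 17, position 5386034, with 34, 0 and 31 reads in CFIm25 KO libraries and 0 and 40 reads in control libraries, 63 bp from its main end. Zeros thus occurred in both groups. In the whole table, of sites with at least 30 reads in some library, 10.2% of 1426 with a neighbour within 100 bp on the same strand had a 0 in some library, against 0.603% of 15434 without one; among nuclear pore sites these were 2 of 5 and 0 of 38. Whether the reads were assigned to the neighbour was not tested. With sites of a gene within 100 bp merged, an alternative added after seeing the data, NUP37 and NUP88 were left with 1 site each, and 0 of 57 nuclear pore sites were called.

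To ask whether 3′ UTRs became shorter or longer, the 2 most used 3′ UTR sites of a gene were compared as a ratio of proximal to distal reads. The log2 shift is the change in that ratio. Its p and SE by edgeR came from the proximal site tested against both sites together, so the SE is not that of the ratio. The log ratio itself was tested by limma. edgeR called 0 of 3287 pairs across the table (0.0%), and 114 (3.47%) had an unadjusted p under 0.05; limma called 0 as well. Among 15 nuclear pore pairs 0 were called by edgeR and by limma, with 1 and 2 at an unadjusted p under 0.05. The shift was above 0 (towards the proximal site) in 5 pairs and below 0 in 10, with a median log2 shift of −0.27, beside −0.09 over all pairs, of which 57.8% were below 0. NUP98 had the pair with the lowest p, its sites 36814 bp apart in different last exons, with a proximal share of 32.0, 66.3 and 52.7% in CFIm25 KO libraries and 13.7 and 26.1% in control libraries (log2 shift 1.96 ± 0.72 (SE), adjusted p = 1.00, edgeR). This shift was 2.66 without CFIm25 KO 1 (adjusted p = 0.0742, edgeR) and 2.57 without control 2, and 1.41 without control 1. With sites within 100 bp merged it was 1.98 (adjusted p = 0.572, edgeR). NUP58 followed, with 30.1, 44.6 and 35.6% in CFIm25 KO libraries and 22.1 and 19.6% in control libraries (log2 shift 1.04 ± 0.50 (SE), adjusted p = 1.00). NUP153 ran the other way (−0.74 ± 0.45 (SE)), and so did NUP37 (−1.83 ± 1.39 (SE)) through its zeros. The groups did not overlap for 4 of the 15 pairs (26.7%, beside 30.6% of all pairs, 10.7% higher and 19.9% lower): NUP98 and NUP58 were higher in CFIm25 KO, and NUP153 and NUP160 lower.

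**Figure D4:**
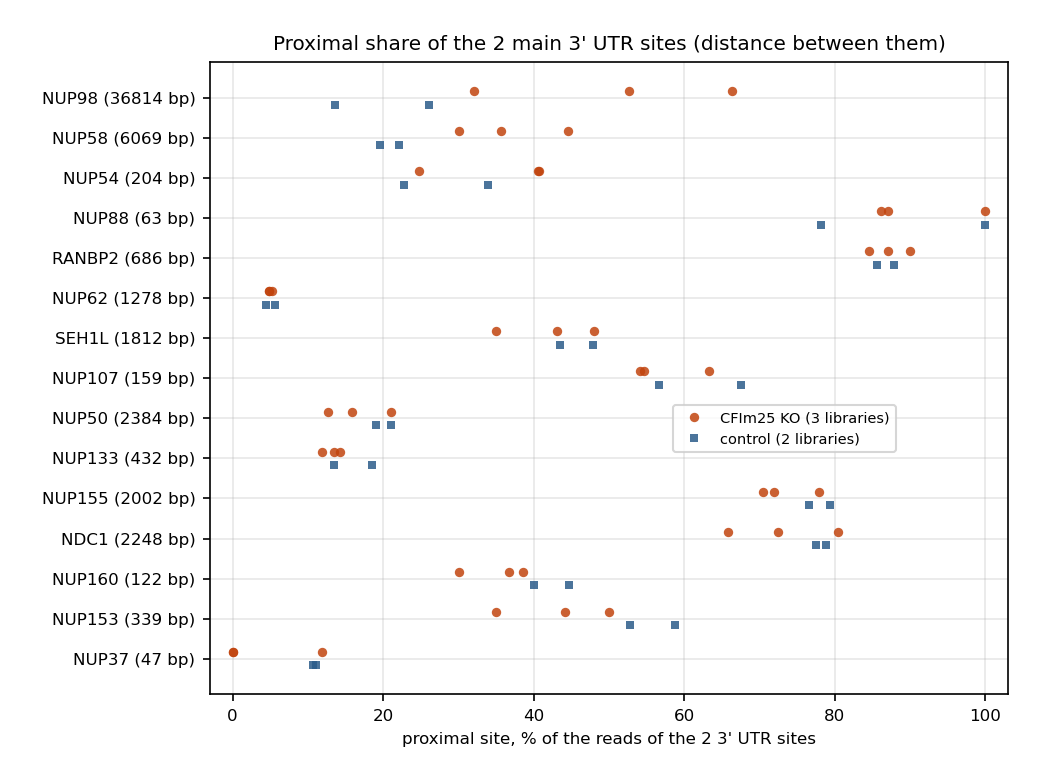
Proximal site as a percent of the reads of both main 3′ UTR sites in each library, for the 15 nuclear pore pairs ordered by log2 shift, with circles for 3 CFIm25 KO and squares for 2 control libraries, and the distance between the sites in parentheses. NUP98 and NUP58 had higher proximal shares in all CFIm25 KO libraries, NUP160 and NUP153 lower ones, and the other 11 pairs overlapped; not overlapping was as common in the table (30.6% of all pairs).

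Reads ending in introns were compared with those in the 3′ UTR for the 3 nuclear pore genes with enough of both. Here p and SE by edgeR came from the intronic part tested against both parts together. edgeR called 1 of 1006 genes (0.0994%), and 63 (6.26%) had an unadjusted p under 0.05. NUP58 had a log2 difference of 3.01 ± 0.78 (SE), with an adjusted p of 0.142 by edgeR, from the reads given above; the difference was 2.37 without control 1 and 3.78 without control 2. NUP214 had 15.3, 16.7 and 13.6% of its reads in an intron in CFIm25 KO libraries and 21.1 and 16.9% in control libraries, where the groups did not overlap but lay close (log2 difference −0.35 ± 0.46 (SE)). POM121 had 1.52, 2.28 and 1.99% in CFIm25 KO libraries and 2.01 and 1.60% in control libraries, which overlapped.

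Genes that work with the pore were tested at the gene level in the same fit. Of 17 linked genes, 14 were tested, 7 above 0 and 7 below, with 0 called and 2 at an unadjusted p under 0.05 (7.13% of all genes). The lowest p values were those of DDX19B, a helicase that strips proteins from exported mRNA (log2 fold change −0.44 ± 0.17 (SE)), ENY2 of the mRNA export complex TREX-2 (−0.28 ± 0.12), AHCTF1, which seeds pores on chromatin (−0.30 ± 0.15), and NUTF2, the importer of RAN (0.36 ± 0.19), with adjusted p values of 0.621 to 0.765 by edgeR. NUPL2, the older symbol of NUP42, had 5.62, 5.90 and 5.63 CPM in CFIm25 KO libraries, against 4.79 and 5.12 CPM in control libraries (log2 fold change 0.20 ± 0.30 (SE)). Of 28 transport receptors, 23 were tested, 12 above 0 and 11 below, with 0 called and 5 at an unadjusted p under 0.05, a higher share than the 7.13% of all genes, a difference that was not tested. KPNB1, the importin that carries most classical import, had 167, 180 and 196 CPM in CFIm25 KO libraries, against 243 and 250 CPM in control libraries. All CFIm25 KO libraries were well below the controls, with a log2 fold change of −0.45 ± 0.12 (SE) and an adjusted p of 0.363 by edgeR. Its adaptor KPNA2 (−0.36 ± 0.14) also had a negative value, while TNPO2 (0.67 ± 0.25) and KPNA1 (0.56 ± 0.21) had positive ones. Of 15 lamina and envelope genes, 14 were tested, 7 above 0 and 7 below, with 0 called and 1 at an unadjusted p under 0.05. EMD, an inner membrane protein, had 621, 754 and 455 CPM in CFIm25 KO libraries, against 356 and 429 CPM in control libraries (log2 fold change 0.64 ± 0.21 (SE), adjusted p = 0.599, edgeR), and LMNB1 (−0.56 ± 0.28), LBR (−0.24 ± 0.13) and LEMD2 (0.23 ± 0.17) came next.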

How the data were processed

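Per the study's methods, 3′ ends of poly(A) RNA were sequenced with QuantSeq Rev on a NovaSeq, and the authors mapped the reverse complement of each read with Bowtie2, keeping 1 alignment, and used its 3′ end to mark poly(A) sites, which were clustered after reads from internal priming had been discarded. The deposited table holds raw read counts per site and library, RPM values that the authors computed from the same counts, and the authors' own fold change and p-value columns, which were not used. It keeps sites whose RPM summed over 5 libraries is at least 5. The submitters' notes name hg19, but the positions match GRCh38. Members, lists and tests were chosen with earlier results of these data known.

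Counts per site, and counts summed per gene, went into the quasi-likelihood F test of edgeR (version 4.0.16; R 4.3.3) without covariates, after filterByExpr and TMM, two-sided, robust, and adjusted by Benjamini-Hochberg over the whole table (threshold 0.05). Site shares, tandem pairs (each site at least 5% of the pair) and intronic shares were tested with diffSpliceDGE. A site's share difference is relative to its gene as a whole, that site included. For pairs and intronic shares the log2 value is the difference between both parts. Their p and SE come from the proximal or intronic part tested against both parts together. Scripts were tested on simulated data first. Alternatives were DESeq2 1.42.0, limma 3.58.1 on log2 ratios (pseudocount 0.5), other scalings and filters, a replicate block, and each library left out. CPM is relative to TMM-scaled reads with a gene. The 5086 sites without a gene (9.78 to 10.8% of reads) were left out of gene sums and of the share, pair and intronic tests. They entered the single-site test and the library totals used to scale the other site tests. Confidence intervals (95%) come from the edgeR fit and include the spread between clones. Reads carry no molecular identifiers, and limits for a count of 0 (3 reads) cover counting error only. Library totals were 5203908 to 7783102 reads. Genes named are the pore genes, NUDT21, the smallest p values of each test, the 3 highest and 3 lowest levels, and up to 4 genes of each further list. Ectoderm, fibroblast and stem cell markers are given in the report. The 2 mesoderm markers found summed to 14.8 to 41.6 CPM in CFIm25 KO and 35.2 to 35.4 CPM in control libraries, the 1 endoderm marker to 1.83 to 4.82 and 3.13 to 4.06 CPM, and the 2 trophoblast markers to 23.8 to 60.1 and 38.6 to 39.2 CPM.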

Additional observations from a re-analysis of the deposited data

How the results depend on the processing

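No nuclear pore gene was called under any alternative at the gene level, and none in the intronic test. With the replicate number as a block, 2 single sites were called (the short end of NUP98, log2 1.31, adjusted p = 0.0106, and the NUP37 end listed at 0), 1 site in the share test and 1 tandem pair, both of NUP37 (log2 shift −8.62, adjusted p = 0.000427). Over the sites and genes, the count of calls left after dropping each library lay between 0 and 1 for single sites, 0 and 1 for shares and 0 and 1 for tandem pairs; the call was NUP37 without CFIm25 KO 3, the only CFIm25 KO library with reads at that end. The block leaves CFIm25 KO 3 without a control of its number, and the numbers did not pair the libraries (r = 0.0618 and 0.0376 over 11841 genes), so these calls are not read as changes. Across the table, calls were 7 genes and 25 sites in the main test, 27 and 75 by DESeq2, 634 and 624 with the block, and 123 and 329 without CFIm25 KO 3.

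Signs turned when a library was left out for 4 values near 0, with log2 fold changes from −0.101 (without control 1) to 0.0869 (without control 2) for NUP93, from −0.0531 (without CFIm25 KO 1) to 0.159 (without control 1) for NUP160, from −0.443 (without control 2) to 0.178 (without control 1) for NUP205 and from −0.0658 (without control 2) to 0.275 (without control 1) for the POM121 intronic share; the cause was not tested. Of 310 values of 31 named results, 296 kept their sign and their side of the threshold. The median nuclear pore site had 40.5 to 67 reads in a library, so values of minor ends rest on few reads.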
